A study of Rattus norvegicus with 6 samples.

Results

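The interleukin 6 family was read as 10 genes: the ligands Il6, Il11, Lif and Osm, the receptor chains Il6r, Il6st, Lifr and Osmr, the transcription factor gene Stat3 and the feedback inhibitor gene Socs3. They were taken by symbol from the platform annotation, from probe sets that name 1 gene alone, and each of the 10 had 1 such probe set among the 22093 genes tested. Tendon RNA came from Sprague-Dawley rats in 6 samples, 3 after control surgery and 3 after tendon injury, with random assignment to either and tendons taken 1 week after injury. Each sample, called a biological replicate in its title, gave 1 array. Neither the rats' age and sex nor the tendon cut or how it was cut is stated in the labels.

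Cytokines of this family signal through a shared receptor chain, encoded by Il6st. Interleukin 6 binds Il6r first, leukemia inhibitory factor pairs Lifr with Il6st, and oncostatin M pairs Osmr with Il6st. Janus kinases on these chains phosphorylate STAT3, which enters the nucleus, and SOCS3 shuts the signal off. In injured tendon the family is known for early inflammation and for acting on tendon fibroblasts and incoming leukocytes. Arrays measure transcripts, not phosphorylation, so no value here is a measure of STAT3 activity.

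Injured replicate 1 stood apart from the other 2 injured arrays. Over all genes, the profiles of injured replicates 2 and 3 had an r of 0.965 with each other, and those of control pairs 0.960 to 0.986. The profile of injured replicate 1 had an r of 0.951 to 0.966 with control profiles, against 0.728 and 0.790 with the profiles of injured replicates 2 and 3 (a description over genes, which are not replicates). Olfactory and vomeronasal receptor genes, 1275 in number and not typical of tendon, had a median log2 signal of 5.42 to 6.04 on the control arrays and 5.72, 7.84 and 7.78 on injured replicates 1, 2 and 3. On injured replicates 2 and 3, genes with a control mean below 6 on the log2 scale differed from it by a median of 0.69 and 0.59, and those at 10 and above by -2.54 and -2.18. On injured replicate 1 these medians were -0.027 and 0.0033. Differences of the 10 genes are therefore given with and without injured replicate 1.

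The tissue label was checked against tendon markers. All 10 tenocyte markers had a group difference below 0, and their mean log2 signal was 12.13 to 14.35 on the control arrays and 8.41 to 9.67 on the injured arrays. Scx, the tendon transcription factor gene, read 5.67 to 5.75 in control and 5.44 to 5.78 in injured tendon. It lay at 0.28, -0.10 and -0.29 from the median receptor gene on the control arrays and at -0.28, -2.12 and -2.00 on the injured arrays. Scx was thus at background, where a change cannot be read. Skeletal muscle markers averaged 17.97 to 18.78 on the control arrays and 18.62, 11.58 and 12.85 on injured replicates 1, 2 and 3. The muscle markers Acta1 and Myh4 and the tenocyte marker Dcn read 19.93 on all control arrays and injured replicate 1. That was the highest value on those arrays, so differences among them cannot be read for these genes. Keratinocyte markers averaged 5.45 to 5.74 in control tendon and 9.77, 6.28 and 6.12 on the injured arrays. The control samples and injured replicate 1 therefore held strong skeletal muscle transcripts. On injured replicates 2 and 3 these were lower on average but not absent. Acta1 and Myh4, the 2 brightest muscle markers, read 14.38 and 15.78 on injured replicate 2 and 19.86 and 13.32 on injured replicate 3. Strong keratinocyte transcripts were held by injured replicate 1 alone. In its profile over all genes injured replicate 1 thus lay with the control arrays, against its label, while its tenocyte marker mean (9.67) lay with the injured arrays (8.41 and 9.17) and below all control arrays. Its label is in doubt for that reason and was kept as given. In whole tissue, fewer cells of a type and less RNA per cell cannot be told apart.

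Il6 had the largest difference among the 10 genes. It encodes interleukin 6, the ligand for which the family is named. Its log2 signal (probe set TC0400000061.rn.1) read 4.69, 4.78 and 4.78 in control replicates 1 to 3, then 4.87, 11.18 and 9.92 in injured replicates 1 to 3. All injured arrays lay above all control arrays, but injured replicate 1 only just, whereas the others stood far above. The group means were 4.75 ± 0.05 and 8.66 ± 3.34 (SD, n = 3), a difference of 3.91 (SE 1.62, 95% confidence interval -0.12 to 7.93), or 15.0-fold, which did not pass the test over all genes (limma adjusted p = 0.322). With that array left out the difference was 5.80 (SE 0.38), or 55.7-fold, with an adjusted p of 0.00169. Il6 stood below the median receptor gene on the control arrays, by 0.73 to 1.26, so the size of the fold is limited by background.

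The Il6 signal on injured replicates 2 and 3 was larger than the general shift of dim probe sets there. Against the control mean Il6 differed by 6.43 on injured replicate 2, where 0 of 1275 receptor genes and 5 of 22093 genes differed by more. On injured replicate 3 it differed by 5.17, where 3 receptor genes and 16 genes in all differed by more. On injured replicate 1 it differed by 0.12, and 320 receptor genes differed by more. With the arrays centred on the receptor genes, Il6 still differed by 2.54 (SE 1.01, adjusted p = 0.202).

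The stretch of 250 bases upstream of the Il6 start is shown because Il6 moved farthest and its control by inflammatory factors is textbook knowledge (RefSeq, GRCr8, chr4:5894576-5894825, minus strand, written 5′ to 3′).
Il6 upstream: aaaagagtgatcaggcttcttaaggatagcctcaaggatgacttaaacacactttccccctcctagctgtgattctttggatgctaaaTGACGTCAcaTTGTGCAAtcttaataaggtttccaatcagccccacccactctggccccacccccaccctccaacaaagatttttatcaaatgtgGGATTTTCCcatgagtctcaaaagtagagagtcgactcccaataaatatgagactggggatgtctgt
The capitals mark, in order, a cyclic AMP response element (TGACGTCA), a C/EBP motif (TTGNGCAA) and the core of a kappa B motif (GGANTTTCC), at -162 to -155, -152 to -145 and -67 to -59 from the start. These motifs were chosen after the sequence was seen, both strands were searched, and none of the matches overlap. In upstream stretches of the same length, 1.59%, 2.29% and 1.08% of 33469 promoters hold them. Of the 8 members with a promoter in the table, Il6 alone held any of these, and the STAT motif TTCNNNGAA was in 0 of the 8 windows and in 7.67% of all promoters. A match is a description of letters, not of binding.

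**Figure D1:**
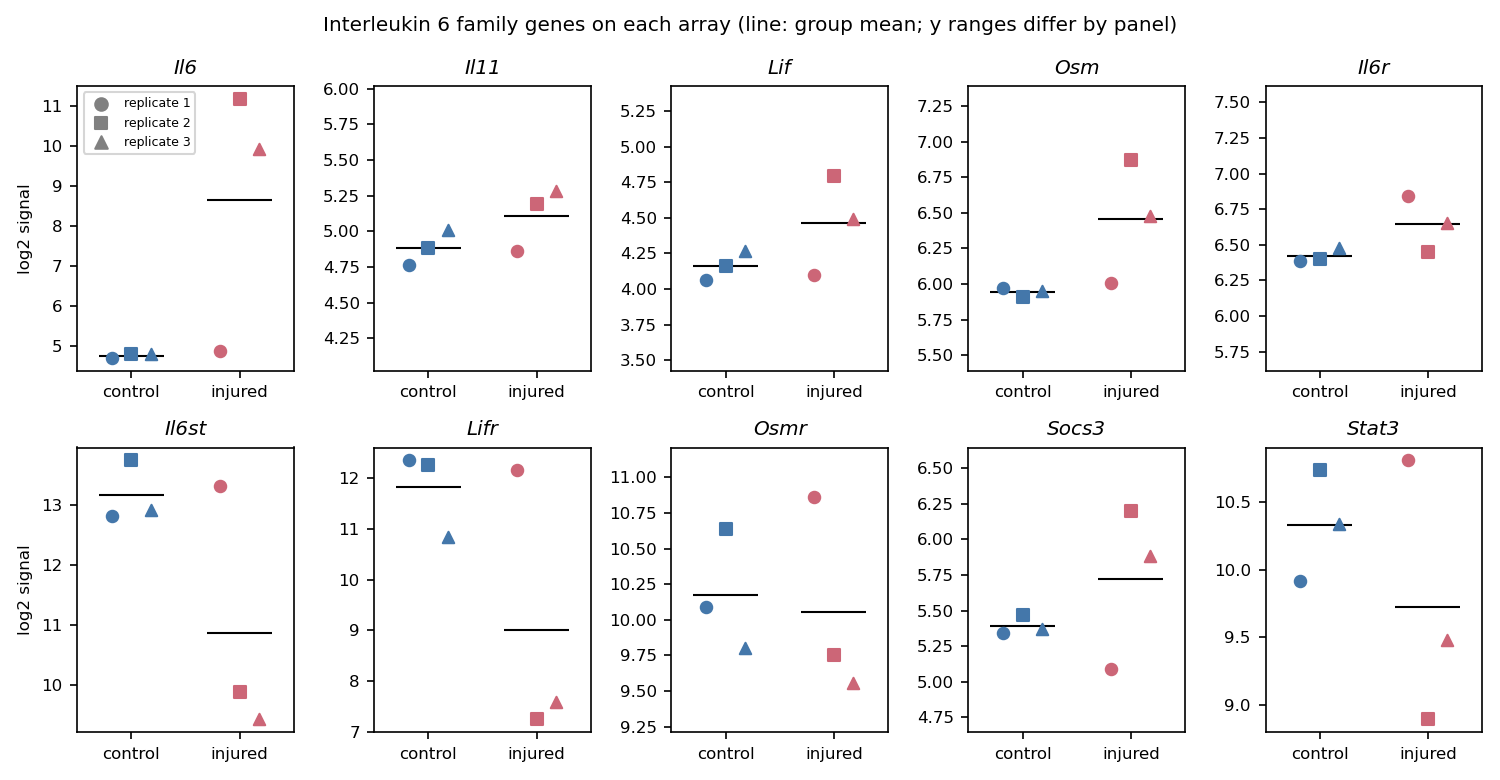
Log2 signal (y axis, ranges differ by panel) of the 10 family genes on each of the 3 control and 3 injured arrays; marker shape gives the replicate and the line the group mean. Il6 reads 11.18 and 9.92 for injured replicates 2 and 3 but 4.69 to 4.87 for the remaining 4 arrays, while Il6st and Lifr are low on the same pair of arrays.

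The other 3 ligands read close to their control signals. Osm, which encodes oncostatin M, a cytokine of activated myeloid cells, read 5.97, 5.91 and 5.95 on the control arrays and 6.01, 6.87 and 6.48 on the injured arrays. The groups did not overlap, although injured replicate 1 was barely above the highest control array. Its difference was 0.51 (SE 0.25, 95% confidence interval -0.10 to 1.12, adjusted p = 0.322), and its sign turned under the 3 scalings tried, to -0.0061 after quantile normalization, -0.017 after centring on array medians and -0.86 after centring on the receptor genes. Leaving out injured replicate 1 gave 0.73 (SE 0.15, adjusted p = 0.0121).

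Lif, which encodes leukemia inhibitory factor, read 4.06, 4.16 and 4.27 in control and 4.10, 4.79 and 4.49 in injured tendon. Injured replicate 1 lay among the control arrays and the other 2 above them. The difference was 0.30 (SE 0.22, adjusted p = 0.386), or 0.48 without injured replicate 1 (SE 0.14, adjusted p = 0.0373). Il11, a ligand induced by transforming growth factor beta in fibroblasts, read 4.76, 4.88 and 5.01 in control and 4.86, 5.19 and 5.28 in injured tendon, again with injured replicate 1 inside the control range. Its difference was 0.23 (SE 0.18, 95% confidence interval -0.21 to 0.67, adjusted p = 0.410), or 0.35 without injured replicate 1 (SE 0.13, adjusted p = 0.0587). The signs of Lif and Il11 also turned under the same 3 scalings.

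On injured replicates 2 and 3 these 3 ligands differed from the control mean by less than most receptor genes did. For Osm, 1221 and 1256 of the 1275 receptor genes differed by more on the respective array, for Lif 1255 and 1268, and for Il11 1270 and 1267. The part of that background in their differences was not tested. Among the ligands, Il6 was therefore the one whose signal exceeded the median shift of the receptor genes on both arrays.

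**Figure D2:**
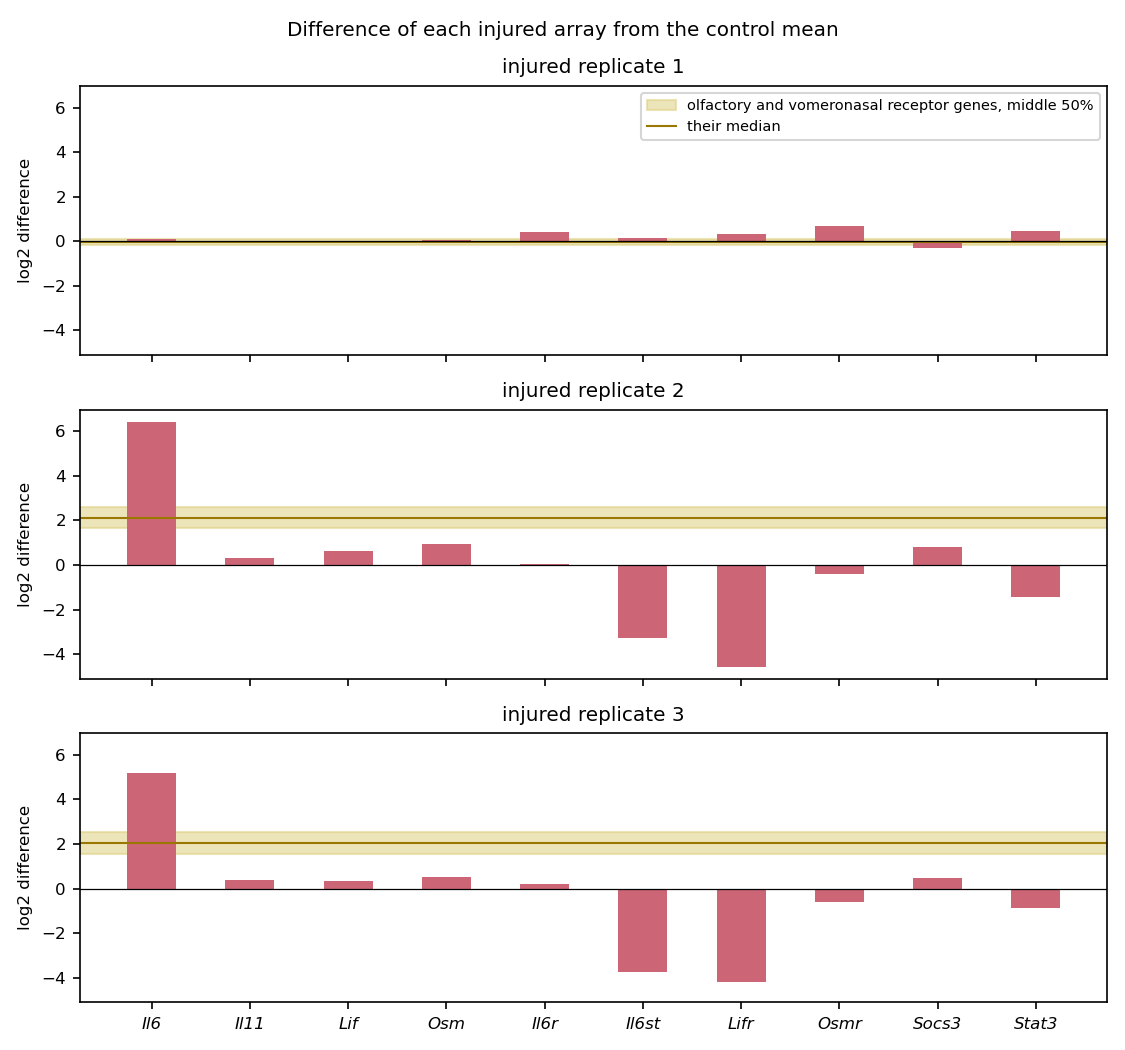
Difference of each injured array from the control mean (log2, bars) for the 10 genes, with the median and middle 50% of the 1275 olfactory and vomeronasal receptor genes as line and band. On injured replicates 2 and 3 the Il6 bar stands above the band (median 2.11 and 2.03), and all other bars end below it.

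Of the receptor chains, Il6st and Lifr were low on injured replicates 2 and 3 and at the control level on injured replicate 1. Il6st, the shared signalling chain, read 12.83, 13.75 and 12.93 on the control arrays and 13.32, 9.89 and 9.43 on the injured arrays. Injured replicate 1 lay inside the control range and the other 2 far below it. The group means were 13.17 ± 0.50 and 10.88 ± 2.13 (SD, n = 3), and the difference was -2.29 (SE 1.07, 95% confidence interval -4.93 to 0.35, adjusted p = 0.322). Without injured replicate 1 it was -3.51 (SE 0.33, adjusted p = 0.0024), or 11.4-fold lower.

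Lifr, the chain for leukemia inhibitory factor, read 12.34, 12.26 and 10.84 in control and 12.15, 7.25 and 7.60 in injured tendon. The difference was -2.81 (SE 1.39, 95% confidence interval -6.27 to 0.64, adjusted p = 0.322), with a control SD of 0.84 and an injured SD of 2.73. Without injured replicate 1 it was -4.39 (SE 0.50, adjusted p = 0.00313). On injured replicates 2 and 3 Lifr differed from the median receptor gene by -0.59 and -0.18, where background bounds how low it can read, whereas Il6st stood above that gene by 2.05 and 1.65. After quantile normalization Il6st and Lifr stayed below 0, at -2.56 and -3.30. Centring on array medians or on the receptor genes lowered all differences by the same amount, so a sign below 0 could not turn there. On injured replicate 1 Il6st and Lifr lay inside the control range, at 0.15 and 0.34 from the control mean.

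Osmr and Il6r had small group differences. Osmr, the specific chain for oncostatin M, read 10.09, 10.64 and 9.80 in control and 10.86, 9.75 and 9.56 in injured tendon. Injured replicate 1 was above all control arrays and injured replicates 2 and 3 below all of them. The group difference was -0.12 (SE 0.42, 95% confidence interval -1.16 to 0.92, adjusted p = 0.851), and it was -0.52 without injured replicate 1 (SE 0.27, adjusted p = 0.147). Il6r, which binds interleukin 6, read 6.39, 6.40 and 6.48 in control and 6.84, 6.45 and 6.65 in injured tendon. Its highest reading was on injured replicate 1, and injured replicate 2 lay within the control range. The difference was 0.22 (SE 0.16, 95% confidence interval -0.18 to 0.62, adjusted p = 0.381), with a sign that turned under the 3 scalings, or 0.13 without injured replicate 1 (SE 0.12, adjusted p = 0.384).

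The receptor chains fell into an order of difference on injured replicates 2 and 3 that was the same on both. Lifr differed from its control mean by -4.56 and -4.21, Il6st by -3.28 and -3.74, Osmr by -0.43 and -0.62, and Il6r by 0.027 and 0.23. Genes with a control mean at 10 and above, as Lifr, Il6st and Osmr have, differed by a median of -2.54 and -2.18 on these arrays, with a middle 50% of -3.51 to -1.67 and of -3.05 to -1.44. Lifr lay below that range on both arrays, Il6st on injured replicate 3 alone, and Osmr above it on both. Over all genes, 225 and 172 had a lower difference than Lifr there, and 566 and 261 a lower one than Il6st. These positions are descriptions, and whether the chains differ from other bright genes was not tested.

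**Figure D3:**
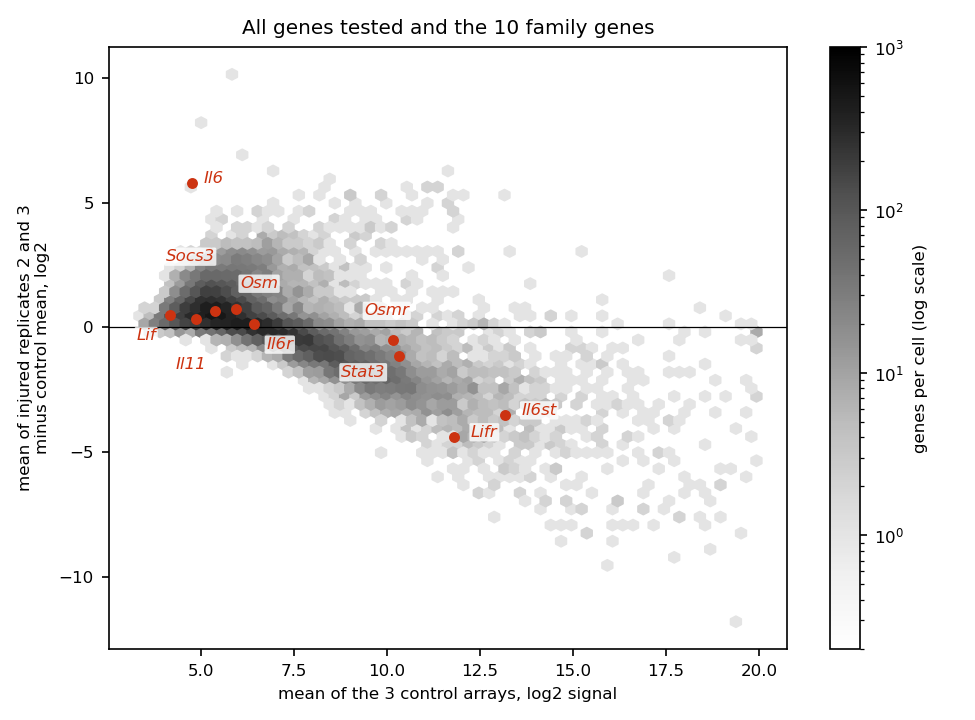
Each of the 22093 genes by its mean log2 signal on the control arrays (x axis) and the mean difference of injured replicates 2 and 3 from it (y axis, log2), with grey cells shaded by the number of genes and the 10 family genes in red. Dim genes tend to lie above 0 and bright genes below it, and Il6, at 5.80, stands apart from the dim genes around it.

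The signalling genes Stat3 and Socs3 stood on opposite sides of control on injured replicates 2 and 3, as did bright and dim genes in general. Genes with a control mean at 10 and above differed by a median of -2.54 and -2.18, and Stat3, 1 of them, by -1.44 and -0.85. Genes with a control mean below 6 differed by a median of 0.69 and 0.59, and Socs3, 1 of them, by 0.81 and 0.49. Whether either gene differs from genes of like signal was not tested. Stat3 read 9.92, 10.74 and 10.34 in control and 10.81, 8.89 and 9.48 in injured tendon, so injured replicate 1 was just above all control arrays and the other 2 below all of them. Its difference was -0.61 (SE 0.53, 95% confidence interval -1.93 to 0.71, adjusted p = 0.452), or -1.15 without injured replicate 1 (SE 0.31, adjusted p = 0.0257). Socs3, which STAT3 itself induces, read 5.34, 5.47 and 5.37 in control and 5.09, 6.20 and 5.88 in injured tendon, with injured replicate 1 below all control arrays and the others above. The difference was 0.33 (SE 0.31, adjusted p = 0.475), or 0.65 without injured replicate 1 (SE 0.14, adjusted p = 0.0143). The sign of Socs3 turned under the 3 scalings (-0.20, -0.20 and -1.04), and 1237 and 1259 of the 1275 receptor genes differed by more on injured replicates 2 and 3.

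Over the 10 genes, 0 passed the limma test over all genes, as did 0% of all 22093 genes. At an unadjusted p under 0.05 there were 0 of 10, against 11.6% of all genes. The groups did not overlap for 2 of 10, Il6 and Osm, against 15.1% of all genes. Both had all injured arrays above all control arrays, as did 7.09% of all genes, and 0 of 10 had all of them below, against 8% of all genes. The median difference was 0.22 over the 10 genes and 0.15 over all genes, with 6 above 0 and 4 below. Without injured replicate 1, 7 of 10 passed, against 60.7% of all genes: Il6, Lif, Osm and Socs3 higher (39.1% of all genes) and Il6st, Lifr and Stat3 lower (21.6% of all genes). With injured replicate 1 alone against the control arrays 0 of 10 passed, against 0.0407% of all genes, in a comparison whose spread comes from the control arrays alone.

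**Figure D4:**
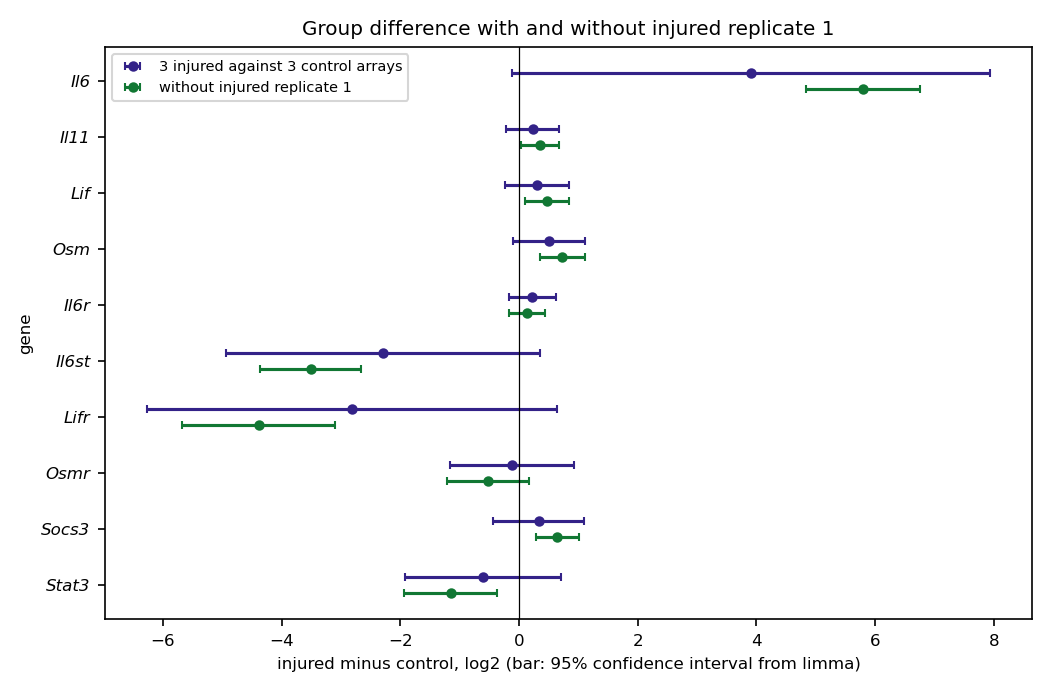
Injured minus control difference (log2, points) with its 95% confidence interval for the 10 genes, over all 6 arrays and without injured replicate 1. All 10 intervals over 6 arrays include 0, and without injured replicate 1 those of Osmr and Il6r do.

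Genes around the 10 were described from a list of 21 other ligands, receptors, shedding proteases, kinases and inhibitors of the family, of which 19 were measured. Of these 0 passed the test over all genes, 2 had an unadjusted p under 0.05 (11.6% of all genes), 10 differed above 0 and 9 below, and the median was 0.08 against 0.15 over all genes. The groups did not overlap for 3 of 19, which is near the 15.1% of all genes, so the genes named next are a description. Ctf1, which encodes the ligand cardiotrophin, read 8.03 to 8.27 in control and 8.30, 8.86 and 8.51 in injured tendon. Il31ra, a receptor chain that pairs with Osmr, read 4.63 to 4.83 in control and 4.90, 5.98 and 5.66 in injured tendon. The sign of Ctf1 turned after centring on array medians (-0.16). After centring on the receptor genes the signs of all 10 partner genes above 0 turned, Ctf1 and Il31ra (-0.62) among them. Adam17, the protease that sheds Il6r and other surface proteins, was lower on all injured arrays, at 9.76, 9.31 and 9.13 against 9.97 to 10.40, a difference of -0.72 (SE 0.23, adjusted p = 0.322).

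Without injured replicate 1, 11 of the 19 passed, 6 higher and 5 lower, against 60.7% of all genes (39.1% higher and 21.6% lower), a share near that background. Jak1, the main kinase of the shared chain, read 11.49, 12.07 and 11.59 in control and 11.77, 8.24 and 8.65 in injured tendon, and without injured replicate 1 it differed by -3.27 (adjusted p = 0.00181). Ptpn11, a phosphatase that binds the activated chain, differed by -2.69 there (adjusted p = 0.00819) and Adam10, another sheddase, by -2.67 (adjusted p = 0.00284). Jak1, Ptpn11 and Adam10 had control means of 11.72, 10.55 and 11.29. Genes with a control mean at 10 and above differed by a median of -2.54 and -2.18 on injured replicates 2 and 3. On these arrays Jak1 differed by -3.48 and -3.07, Ptpn11 by -3.17 and -2.21, and Adam10 by -2.81 and -2.52. Whether they differ from other bright genes was not tested. Jak2 and Tyk2, the other kinases, did not pass without injured replicate 1 (-0.30 and 0.17, adjusted p = 0.368 and 0.252). Cntfr, the specific receptor for ciliary neurotrophic factor, differed by -1.25 (adjusted p = 0.0179), and Il11ra1, the receptor for the Il11 product, by -0.24 (adjusted p = 0.218). The ligand genes Il31, Ebi3, Il27, Ctf2 and Ctf1 differed by 1.32, 1.16, 0.70, 0.61 and 0.50 and passed, all by less than the median receptor gene (2.06). Socs1, a second feedback inhibitor, differed by 0.21 (adjusted p = 0.135).

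Genes that STAT3 or the acute phase response is known to induce did not move as 1 group. Of 25 listed and measured, 0 passed over all genes, 4 had an unadjusted p under 0.05 (11.6% of all genes), 15 differed above 0 and 10 below, and the median was 0.20. The groups did not overlap for 4 of 25, near the 15.1% of all genes, and the values of these genes are given as a description. Pim1, a kinase gene induced by STAT3, was above control on all injured arrays and read 6.07, 6.19 and 6.10 in control and 6.84, 6.80 and 6.49 in injured tendon, a difference of 0.59 (SE 0.16, adjusted p = 0.322). Il4r, an interleukin receptor gene, was also above on all injured arrays, by 0.39 (SE 0.17, adjusted p = 0.322). Fos, an immediate early gene, read 9.94, 10.88 and 8.56 in control and 7.53, 7.34 and 7.90 in injured tendon, a difference of -2.20 (SE 0.60, adjusted p = 0.322), and Ccnd1, a cyclin gene, differed by -0.52 (SE 0.17, adjusted p = 0.322) with all injured arrays below control.

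Other target genes differed between the injured arrays. Lbp, which encodes the lipopolysaccharide binding protein, had the largest group difference of the list, at -3.57 (SE 1.26, adjusted p = 0.322), with 10.62 on injured replicate 1 inside its control range of 10.53 to 14.16. After centring on the receptor genes the signs of all 15 target genes above 0 turned, Pim1 and Il4r among them. Il4r also turned after centring on array medians (-0.14). Fos, Ccnd1 and Lbp stayed below 0 after quantile normalization (-2.40, -0.98 and -3.98), whereas the centrings could not turn a sign below 0. The liver acute phase genes A2m, Fgb, Fga and Fgg differed by 1.37, 1.06, 0.80 and 0.80, and by 2.03, 1.60, 1.18 and 1.17 without injured replicate 1, against 1.36 and 2.06 for the median receptor gene. Lcn2, also a neutrophil gene, differed by 0.86 (SE 0.54). Mcl1, a survival gene, read 15.71 on injured replicate 1, above its control range of 13.18 to 14.76, and 12.03 and 11.89 on injured replicates 2 and 3, below it. Of the 25, 7 passed higher and 4 lower without injured replicate 1, a smaller share than the 60.7% of all genes (39.1% higher and 21.6% lower).

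**Figure D5:**
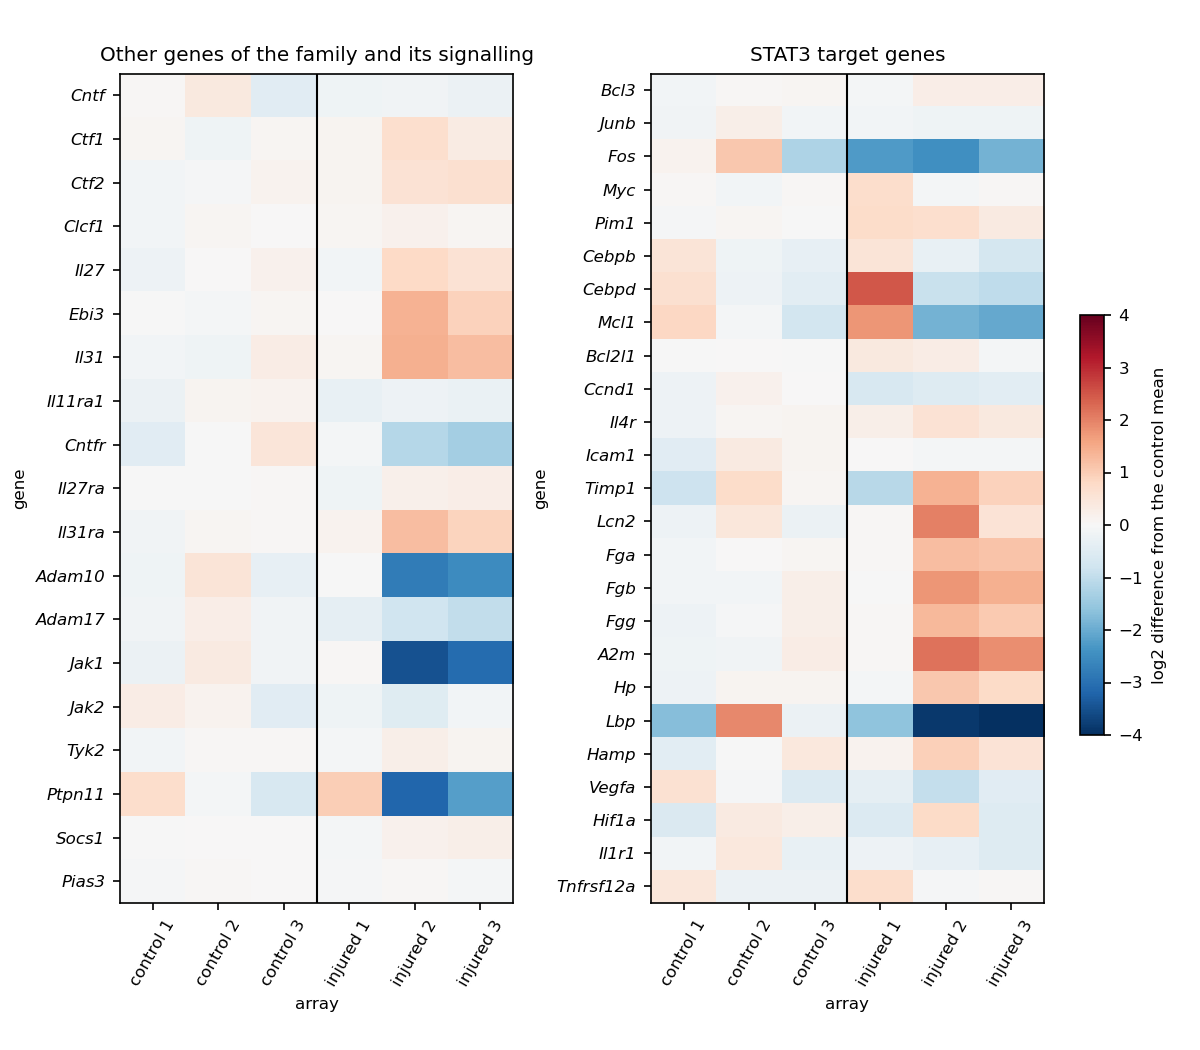
Difference of every array from the control mean (log2, colour, with the scale ending at -4 and 4) for 19 other genes of the family and its signalling and 25 STAT3 target genes. Injured replicate 1 resembles the control columns for most family genes, and Jak1, Adam10, Ptpn11 and Lbp are darkest blue on injured replicates 2 and 3.

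Markers of some other cell types moved with these results, macrophage markers little, and their part in them was not tested. Neutrophil markers, whose cells respond to and release cytokines of this family, had a mean log2 signal of 5.37 to 5.58 on the control arrays and 5.50, 7.59 and 6.66 on injured replicates 1, 2 and 3, with 10 of 10 differences above 0, of which 7 turned after centring on the receptor genes. They were high on the arrays on which Il6 was high. The defining granule genes Mpo and Elane read 5.55 and 6.69 on injured replicate 2, below the median receptor gene of that array (7.84). Ngp, Camp and Csf3r also read below it (6.23, 5.07 and 6.17). S100a9, Mmp8, Cxcr2, Lcn2 and S100a8 read above it (10.45, 9.84, 9.23, 8.59 and 8.04). On injured replicate 3, S100a9 and Mmp8 alone did so (8.15 and 8.06 against 7.78). S100a8, S100a9 and Mmp8 stayed above 0 after centring on the receptor genes (0.20, 1.38 and 0.76). Macrophage markers averaged 7.33 to 8.33 and 7.23, 7.74 and 7.59, with 4 of 10 above 0. All 4 turned after centring on the receptor genes. T cell markers averaged 5.43 to 5.83 and 5.43, 6.10 and 6.06, with 7 of 8 above 0, all 7 of which turned after centring on the receptor genes. Endothelial markers, from cells that also carry Il6st and Lifr, averaged 9.79 to 11.00 and 10.83, 7.63 and 7.71, with 0 of 7 above 0, and adipocyte markers averaged 9.24 to 11.79 and 9.32, 6.60 and 6.52, with 0 of 8 above 0. Skeletal muscle, endothelial and adipocyte markers were thus low on the arrays on which Il6st and Lifr were low, as were bright genes in general. Genes with a control mean at 10 and above differed by a median of -2.54 and -2.18 on injured replicates 2 and 3. Muscle markers differed by a median of -6.8 and -6.7 there, endothelial markers by -3.37 and -2.92 and adipocyte markers by -2.54 and -2.77. Whether these markers differ from genes of like signal was not tested. All of their differences stayed below 0 after quantile normalization, whereas the centrings could not turn a sign below 0.

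The genes whose profiles over the 6 arrays were nearest to those of Il6, Osmr and Il6st were found by the mean absolute difference of log2 values taken from each gene's control mean, over 11650 genes with a range of at least 1. For Il6 these were Slpi, Olr1 and Clec4d, at 0.41, 0.42 and 0.45. Clec4d differed from its control mean by 0.87, 7.53 and 4.88 on injured replicates 1, 2 and 3 and Slpi by 0.25, 5.90 and 4.24. For Osmr they were Sox17, Scin and Btg1, at 0.075, 0.076 and 0.087, and for Il6st Arhgap29, Ccn2 and Smim15, at 0.12, 0.14 and 0.15. The distance is not scaled to the size of a profile, so the larger distances for Il6 cannot be compared with those for Osmr and Il6st.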

How the data were processed

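Tendon RNA of 6 samples was hybridised to 6 arrays. The sample titles name a rat transcriptome array and the protocol a mouse array; probe sets carry rat gene symbols. The authors deposited log2 signals of 68842 probe sets, from Affymetrix Expression Console according to the submitters' processing notes; version, background correction and normalization: not given in the sources used here. Of the probe sets, 23446 have 1 symbol in the annotation, 505 have several and 44891 have none, and Entrez identifiers updated 1 symbol. Each gene was represented by its probe set of highest mean.

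Groups were compared by limma 3.58.1 (R 4.3.3; lmFit, eBayes, two-sided) on the values as deposited, with no filter, Benjamini-Hochberg adjustment over 22093 genes and a threshold of 0.05. Errors of differences are standard errors. Arrays have no read depth, their number limits the precision, and an exact permutation test of 3 against 3 was not used. The labels call the replicates biological without saying whether each is 1 animal, so p-values measure the spread between these samples.

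The 10 genes, the lists and the rule for named genes were chosen with earlier results of these data known. The rule allowed all members and partner genes, from the STAT3 list the 8 largest differences, and from each marker list the 2 brightest genes. Ctf1, Il31ra, Pim1, Il4r, Ccnd1, Scx and the neutrophil markers, where not covered by it, were chosen after their values were seen. So were the groups by control mean. Trp63 was matched as Tp63. Some listed genes are not reported here. Olr1, the oxidised lipoprotein receptor, was kept out of the olfactory genes. Promoters came from RefSeq (GRCr8), where 8 of 10 members matched. The scripts were tested on simulated data. Alternatives are in the closing section.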

Additional observations from a re-analysis of the deposited data

How the results depend on the processing

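Group and array are tied together here: the values rest on whether injured replicate 1 is kept, and 6 arrays limit the precision. The counts past the threshold (0 genes, 0 of 10 family genes, 0 of 19 partner genes and 0 of 25 STAT3 targets in limma, with 2572 genes at an unadjusted p under 0.05) stayed at 0 under quantile normalization, both centrings, dim genes left out, other handling of probe sets, eBayes with trend and robust, and the replicate block. They became 16102, 9, 13 and 15 with array quality weights, which gave injured replicate 1 a weight of 0.0687 (the gene-by-gene method, since the other did not converge). Leaving out 1 array gave 0 to 13418 genes, 0 to 7 family genes, 0 to 11 partner genes and 0 to 11 targets, with all counts above 0 from leaving out injured replicate 1. Injured replicate 1 alone, with the spread of the control arrays, called 9 genes, 0 of them family, partner or target genes and 2 of them keratinocyte markers (Krt1 and Dsp). With the replicate block, 0 family genes passed and 4565 genes had an unadjusted p under 0.05. Deviations of same-numbered arrays from their group means correlated at 0.48, -0.043 and 0.59, and those of other pairs at -0.67 to 0.65. Each group mean holds the array itself and 1 array stood apart, so these values cannot tell whether the numbers mark pairs. The labels state no pairing.

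The median difference over all genes was 0.15 as deposited, -0.28 after quantile normalization, -0.38 after centring on medians and -1.22 after centring on the receptor genes, and genes above 0 went from 61.6% to 28.6%, 24.5% and 4.75%. Signs turned as follows; the cause was not tested. After quantile normalization, Il11 was at -0.20, Lif at -0.0039, Osm at -0.0061, Il6r at -0.29 and Socs3 at -0.20. After centring on medians these were -0.30, -0.23, -0.017, -0.30 and -0.20, and after centring on the receptor genes -1.14, -1.07, -0.86, -1.15 and -1.04. Osmr ranged from -0.52 to 0.13 with 1 array left out. With injured replicate 1 alone (1 array, with adjusted p-values of 0.923 to 0.999 for these), Il11 was at -0.023, Lif at -0.063, Il6st at 0.15, Lifr at 0.34, Osmr at 0.68, Socs3 at -0.30 and Stat3 at 0.48. Il6 stayed above 0 under all 16 alternatives, from 0.12 to 5.80. With dim genes left out, Il11, Lif and Socs3 gave no value.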
